A study of Homo sapiens with 18 samples.

Results

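The genes described here carry out the synthesis, storage, uptake and breakdown of catecholamines. The 10 members, TH, DBH, DDC, GCH1, PNMT, SLC18A1, SLC18A2, SLC6A2, MAOA and CYB561, were taken by symbol from 39368 genes in each of 2 count tables, and all 10 were found in both. RNA sequencing had been done on a pair of MYCN-amplified human neuroblastoma lines, BE2C and Kelly. In each line the control carried pLKO-GFP (genotype: control), and the other groups carried 1 of 2 short hairpin RNAs against AHR, shAhR-1 or shAhR-2 (genotype: AhR knockdown). pLKO is a lentiviral vector, and the labels give neither the delivery nor the time of harvest. There were 18 libraries, 3 for each of 6 groups, and nothing in the labels ties them to separate cultures. The p-values therefore cover only library-to-library spread, which could be technical.

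Catecholamines are made from tyrosine. TH, tyrosine hydroxylase, catalyses the rate-limiting step to L-DOPA and needs tetrahydrobiopterin, whose synthesis starts with GCH1. DDC decarboxylates L-DOPA to dopamine, SLC18A1 and SLC18A2 (the vesicular monoamine transporters) load dopamine into vesicles, and DBH inside the vesicle makes noradrenaline with electrons that CYB561 brings across the vesicle membrane. PNMT forms adrenaline in chromaffin cells, SLC6A2 takes noradrenaline back up, and MAOA oxidises it in the cytoplasm. Sympathetic neurons and most neuroblastomas make noradrenaline and dopamine, which is why their metabolites are measured in patients.

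Depth was 32799682 to 45469353 counts per library. The hairpins' target was counted very rarely. AHR had 4, 4 and 6 counts in the BE2C controls, 8, 0 and 0 with shAhR-1 and 0, 0 and 0 with shAhR-2. Kelly had 4, 26 and 29 AHR counts in the controls, 0, 4 and 0 with shAhR-2 (log2 −3.84 ± 0.81, SE), and 18, 11 and 22 in the group labelled shAhR-1 (−0.10 ± 0.54, edgeR adjusted p = 0.889). The last value rests on single controls, being −0.61 ± 0.54 (adjusted p = 0.353) without the first and 0.35 ± 0.64 (adjusted p = 0.671) without the third. A lower AHR was not shown in that group, AHR was too low to be tested in BE2C, and directions given for Kelly shAhR-1 are differences of the libraries so labelled from their control. All 10 sympathoadrenal neuroblast markers (PHOX2A, HAND2, GATA3 and others) were present at 1 CPM or more in every group. Here CPM is the count per 1000000 counts of library size after TMM scaling. Their summed level was 3644 to 3713 CPM in the BE2C controls, 3875 to 3914 with shAhR-1 and 2156 to 2251 with shAhR-2, and 4968 to 5227, 4209 to 4265 and 3799.5 to 3852 CPM in the same groups of Kelly. These sums do not show each marker's direction. In BE2C with shAhR-1, 3 markers were called higher and 5 lower (25.2% and 27.1% of all genes). With both BE2C hairpins 1 was higher and 4 were lower (14.6% and 17.4%), and 3 had opposite signs (12.6%). In Kelly 3 were higher and 3 lower with both (12.9% and 14.3%), and 1 had opposite signs (22.4%). The 8 fibroblast markers summed to 166 to 169.7 CPM in the BE2C controls and 298 to 309 with shAhR-2 (176 to 184 with shAhR-1), and to 118 to 125, 83.0 to 95.3 and 113 to 115 CPM in Kelly, with COL1A2 at 0 in the shAhR-2 groups of both lines. With shAhR-2, 5 of 7 fibroblast markers tested in BE2C were called higher and 1 lower (38.0% and 37.2% of all genes). In Kelly 1 of 6 was higher and 3 were lower (37.2% and 38.2%). The 8 Schwann cell and glial markers summed to 2.47 to 3.40 CPM in the BE2C controls, 2.22 to 3.35 with shAhR-1 and 13.1 to 13.8 with shAhR-2, and to 3.67 to 4.33, 3.19 to 3.34 and 9.89 to 10.3 CPM in Kelly, with CDH19 at 0 in all 6 groups. The 6 adrenal cortex markers stayed at or below 3.59 CPM in sum and the 6 leukocyte markers at or below 0.502 CPM. In bulk RNA, fewer cells of a type and less RNA per cell cannot be told apart, and the part of these markers in the results below was not tested. Mitochondrial genes took 19.1% ± 0.303 of the counts (SD, n = 3) in the BE2C controls, 24.5% ± 0.367 in the shAhR-1 group and 22.0% ± 2.64 in the shAhR-2 group, and 15.2% ± 0.616, 17.5% ± 0.139 and 15.5% ± 0.292 in the same groups of Kelly, so this share was higher with shAhR-1 in both lines. Fits without these genes changed no call of a member. The first BE2C shAhR-2 library stood apart from its group, with 25.1% mitochondrial counts against 20.5% in both others, so BE2C shAhR-2 results are also given without it.

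Upstream sequence is shown for 4 of the genes. Only 5 members had a matched start, and the MAOA window lay wholly in annotated exons. DBH, DDC and MAOA fell with both hairpins in Kelly, whereas SLC18A2 and CYB561 moved in opposite directions with the 2 hairpins there. In BE2C with shAhR-2, DBH fell and DDC rose. RefSeq starts (GRCh38.p14) were matched for 5 members, DBH, DDC, SLC18A2, CYB561 and MAOA. The 250 bases before each start were searched on both strands for GCGTG (the core bound by the AhR and ARNT pair), CACGTG (an E-box), TGACG (the core of a cyclic AMP response element, CRE), TGACGTCA (the whole CRE, which contains TGACG on both strands), GGGCGG (a GC box) and ATTA (a homeodomain core). Capitals mark the AhR, CRE and homeodomain cores on either strand, and all runs are written 5′ to 3′ on the gene's strand. Only bases outside annotated untranslated regions are given, apart from the short DBH stretch and the last base of the SLC18A2 run.
DBH (chr9:133636182-133636210, plus strand): TGACGtccatgtgtcATTAgtgccaATTA
DDC, upstream start (chr7:50565458-50565655, minus strand): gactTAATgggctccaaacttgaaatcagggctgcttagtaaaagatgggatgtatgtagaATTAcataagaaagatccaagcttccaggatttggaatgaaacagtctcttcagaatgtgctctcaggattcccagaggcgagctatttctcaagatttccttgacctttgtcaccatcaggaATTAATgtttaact
DDC, downstream start (chr7:50561072-50561321, minus strand): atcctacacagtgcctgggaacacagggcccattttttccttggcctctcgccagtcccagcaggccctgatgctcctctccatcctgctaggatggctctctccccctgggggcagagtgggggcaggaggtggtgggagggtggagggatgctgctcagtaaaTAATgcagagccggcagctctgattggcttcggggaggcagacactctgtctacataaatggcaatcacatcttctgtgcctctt
SLC18A2 (chr10:117240864-117241073, plus strand): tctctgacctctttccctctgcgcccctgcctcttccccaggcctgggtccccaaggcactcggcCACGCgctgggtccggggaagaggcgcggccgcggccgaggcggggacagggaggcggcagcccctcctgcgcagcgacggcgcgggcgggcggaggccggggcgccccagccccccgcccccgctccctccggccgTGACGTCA
CYB561, 1 of 4 starts (chr17:63446379-63446556, minus strand): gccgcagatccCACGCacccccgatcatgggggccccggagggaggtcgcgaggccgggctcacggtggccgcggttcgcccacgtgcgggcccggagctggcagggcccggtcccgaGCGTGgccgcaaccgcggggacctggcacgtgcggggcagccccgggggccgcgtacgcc

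The DBH stretch held TGACG starting 181 bases before the start, with ATTA at 166 and 156, and the rest of the 250-base window had a further ATTA at 71. Neither DBH, MAOA nor either DDC window contained GCGTG, which 32.2% of 35116 windows of this length contain. SLC18A2 had 1 GCGTG and a whole CRE 48 bases before its start, a motif of 1.65% of windows, and no ATTA, which 47.4% contain. Of the 4 CYB561 windows 2 held 2 GCGTG each, and the printed one also had 2 E-boxes, which 6.34% of windows contain. A further CYB561 window held ATTA at 122, 111 and 69 and no GCGTG, and the last held none of the motifs. MAOA had 4 GC boxes, present at least once in 42.6% of windows. These are matches of letters in short windows, and the gene counts do not say which start a transcript used. Their relation to the changes with the hairpins was not tested.

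In the controls the 2 lines ranked the genes differently (both on 1 TMM scale for all 18 libraries, per kilobase of exonic bases). In BE2C the order of levels was DBH (140 ± 6.94 CPM per kb, SD, n = 3), DDC (128 ± 2.42), CYB561 (99.4 ± 4.84), SLC6A2 (36.8 ± 2.06), TH (34.1 ± 1.08), SLC18A1 (10.4 ± 0.532), GCH1 (4.98 ± 0.301), SLC18A2 (2.64 ± 0.148), MAOA (0.373 ± 0.0381) and PNMT (0.102 ± 0.0322), and only SLC6A2 and TH overlapped as neighbours. In Kelly it was DBH (355 ± 11.5), DDC (155 ± 1.68), TH (106 ± 4.36), CYB561 (75.0 ± 1.54), MAOA (64.2 ± 0.213), SLC18A2 (16.5 ± 0.155), SLC18A1 (16.1 ± 1.29), SLC6A2 (13.7 ± 0.515), GCH1 (6.52 ± 0.680) and PNMT (0.232 ± 0.184), and only the 2 vesicular transporters overlapped as neighbours. The widest gap between the lines was that of MAOA, at 2.06 ± 0.211 CPM in BE2C and 355 ± 1.18 in Kelly, a 172-fold difference (log2 −7.43 ± 0.069, SE). SLC18A2 (−2.64 ± 0.060), TH (−1.63 ± 0.045), DBH (−1.34 ± 0.033), SLC18A1 (−0.63 ± 0.051), GCH1 (−0.39 ± 0.079) and DDC (−0.28 ± 0.028) were also lower in BE2C. Noradrenaline transporter SLC6A2 (1.42 ± 0.043) and CYB561 (0.41 ± 0.029) were higher in BE2C, at 201 ± 11.2 CPM against 75.0 ± 2.81 and at 529 ± 25.8 against 399 ± 8.17. PNMT did not pass the test (−1.14 ± 0.58, edgeR adjusted p = 0.0701), but would without the first (adjusted p = 0.0287) or second Kelly control (adjusted p = 0.0345), and had −0.29 without the third. So 2 members were higher and 7 lower in BE2C, with 37.2% of 17136 genes tested called higher and 39.0% lower. The median difference of the members was −0.88 and that of all genes −0.03.

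**Figure D1:**
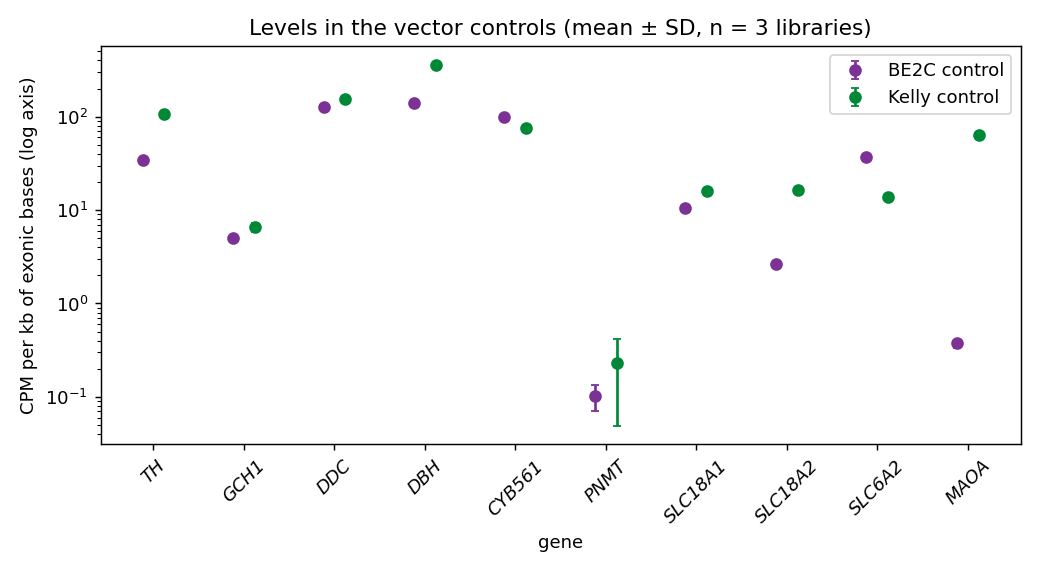
Levels of the 10 genes in the vector controls of BE2C and Kelly, in CPM per kilobase of exonic bases on a log axis (points are means, bars SD, n = 3 libraries). MAOA differs most, at 0.373 in BE2C and 64.2 in Kelly, and PNMT is lowest in both lines.

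Against this baseline TH and DBH, the defining enzymes of the pathway, fell in all 4 comparisons with the control. Each change is a log2 fold change ± SE from edgeR's quasi-likelihood test, and genes with a Benjamini-Hochberg adjusted p below 0.05 over all genes tested are called. All 10 members passed the filter on low counts in both lines.

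TH (chromosome 11, 2163929–2171877, minus strand, GRCh38, GENCODE release 29) stood at 111, 105 and 106 CPM in the BE2C controls, at 45.3, 53.0 and 52.8 with shAhR-1 and at 77.3, 72.1 and 68.4 with shAhR-2. All 6 hairpin libraries lay below the controls, and those of shAhR-1 were the lowest (−1.10 ± 0.051 and −0.57 ± 0.049, edgeR adjusted p = 1.37e-18 and 3.09e-12). In Kelly the controls held 356, 336 and 364 CPM, the group labelled shAhR-1 48.4, 53.2 and 45.7, and shAhR-2 139, 147 and 147. The fall was 7.17-fold in the libraries labelled shAhR-1 and 2.44-fold with shAhR-2 (−2.84 ± 0.039 and −1.29 ± 0.035), and no groups overlapped. The 3.10-fold gap between the controls of the lines was not seen with shAhR-1, where the group means were 51.8 ± 4.62 CPM in BE2C and 47.7 ± 3.67 in Kelly on the scale common to all libraries, a difference that was not tested.

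GCH1 (chromosome 14, 54842008–54902852, minus strand), GTP cyclohydrolase, moved the other way. The BE2C controls held 13.4, 15.2 and 14.2 CPM, and the hairpins 20.3, 19.9 and 17.8 (shAhR-1) and 44.7, 53.4 and 53.5 (shAhR-2). The 3 groups did not overlap, and the rise was 1.35-fold and 3.53-fold (0.43 ± 0.078 and 1.82 ± 0.073). Kelly had 21.5, 17.5 and 20.2 CPM in the controls, 21.9, 22.8 and 21.8 in the libraries labelled shAhR-1 and 21.1, 23.2 and 23.0 with shAhR-2. These groups nearly touch or overlap. The calls there (0.17 ± 0.071 and 0.18 ± 0.070, edgeR adjusted p = 0.0391 and 0.0163) were lost when single libraries were left out, 5 of 9 for shAhR-1 and 3 of 9 for shAhR-2. Without the second Kelly control the values were 0.09 (adjusted p = 0.333) and 0.10 (adjusted p = 0.219). The shAhR-1 call was also lost with DESeq2 (adjusted p = 0.0935) and with no filter (adjusted p = 0.0685).

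DDC (chromosome 7, 50458436–50565457, minus strand), the decarboxylase, differed by line and hairpin. In BE2C it went from 397, 385 and 385 CPM in the controls to 319, 333 and 317 with shAhR-1 and to 498, 479 and 475 with shAhR-2. The controls lay between the hairpins with no overlap, so DDC fell with shAhR-1 (−0.27 ± 0.029) and rose with shAhR-2 (0.31 ± 0.029). In Kelly the controls held 502, 493 and 499.5 CPM, shAhR-2 320.1, 322 and 318, and the group labelled shAhR-1 178, 173 and 173. Both hairpin groups were below the controls there, at −1.51 ± 0.028 and −0.64 ± 0.027. Exons of DDC share 3.64% of their bases with DDC-AS1 on the other strand, and the strand setting of the counting is not known.

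DBH (chromosome 9, 133635348–133659344, plus strand), dopamine beta-hydroxylase, had 538, 516 and 488 CPM in the BE2C controls, 379, 385 and 388 with shAhR-1 and 165, 179 and 184 with shAhR-2. It fell with both, most with shAhR-2 (−0.42 ± 0.035 and −1.54 ± 0.036). In Kelly it had 1411, 1330 and 1385 CPM in the controls, 207, 205 and 196 in the libraries labelled shAhR-1 and 418, 426 and 426 with shAhR-2. The order of the hairpins was reversed there, with a 6.79-fold fall in the libraries labelled shAhR-1 and 3.25-fold with shAhR-2 (−2.76 ± 0.029 and −1.70 ± 0.028). Exons of DBH share 3.12% of their bases with the antisense gene DBH-AS1, and the counting's strand setting is not given.

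CYB561 (chromosome 17, 63432304–63446378, minus strand), the electron carrier of the vesicle membrane, fell in BE2C from 540, 492 and 511 CPM to 339, 341 and 343 with shAhR-1 and to 394, 401 and 402 with shAhR-2 (−0.59 ± 0.030 and −0.37 ± 0.030). In Kelly it had 418, 405 and 405 CPM in the controls, 198, 198 and 196 in the libraries labelled shAhR-1 and 527, 539 and 527 with shAhR-2. The 2 hairpin groups lay on either side of the Kelly controls without overlap, at −1.05 ± 0.028 and 0.37 ± 0.027.

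PNMT (chromosome 17, 39667981–39670475, plus strand), which forms adrenaline, was near the limit of detection. Its counts were 6, 8 and 4 in the BE2C controls, 16, 9 and 28 with shAhR-1 and 44, 23 and 26 with shAhR-2. In Kelly they were 8, 8 and 25 in the controls, 18, 28 and 34 in the libraries labelled shAhR-1 and 51, 55 and 60 with shAhR-2. As CPM the Kelly shAhR-2 libraries (1.27, 1.30 and 1.33) and both BE2C hairpin groups lay above their controls, whereas the Kelly libraries labelled shAhR-1 overlapped the controls. In BE2C the changes were 1.54 ± 0.57 and 2.21 ± 0.55, against 1.07 ± 0.42 and 1.93 ± 0.39 in Kelly, with shAhR-1 given first, all called. PNMT passed the filter through the hairpin libraries, where it was high, so these calls were favoured by the filter. In a fit of only the BE2C controls and shAhR-1 it was not tested. The BE2C shAhR-1 call was lost without the first control, the third control or the third shAhR-1 library (1.03, adjusted p = 0.204, without the last). In Kelly the shAhR-1 call was lost without any of 4 single libraries (0.75, adjusted p = 0.146, without the first control), and the value was 1.91 without the third control, which held 25 counts.

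The 2 vesicular transporters did not move together. SLC18A1 (chromosome 8, 20144855–20183206, minus strand), the form typical of chromaffin cells, had 41.2, 37.4 and 40.2 CPM in the BE2C controls, 53.4, 49.8 and 50.9 with shAhR-1 and 22.8, 25.4 and 25.1 with shAhR-2. It rose with shAhR-1 (0.38 ± 0.055) and fell with shAhR-2 (−0.70 ± 0.058), without overlap. In Kelly it had 60.3, 70.4 and 62.7 CPM in the controls, 61.8, 61.0 and 59.5 in the libraries labelled shAhR-1 and 85.7, 89.2 and 87.1 with shAhR-2. It rose with shAhR-2 (0.44 ± 0.043) and did not pass the test with shAhR-1 (−0.09 ± 0.044, −0.17 to 0.00 at 2 SE, edgeR adjusted p = 0.0933), with −0.13 (adjusted p = 0.0137) without the first control and −0.02 (adjusted p = 0.764) without the second.

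SLC18A2 (chromosome 10, 117241073–117279430, plus strand), the neuronal form, had 9.95, 11.0 and 11.1 CPM in the BE2C controls, 10.3, 9.34 and 11.1 with shAhR-1 and 16.2, 17.2 and 16.6 with shAhR-2. The shAhR-2 libraries stood above both other groups (0.64 ± 0.088), while shAhR-1 overlapped the control (−0.05 ± 0.091, −0.24 to 0.13 at 2 SE, edgeR adjusted p = 0.646). In Kelly it went from 69.7, 69.5 and 70.7 CPM in the controls to 30.7, 28.2 and 30.5 in the libraries labelled shAhR-1 and to 86.2, 88.6 and 86.8 with shAhR-2. As for CYB561, the 2 hairpins gave opposite signs in Kelly (−1.23 ± 0.045 and 0.32 ± 0.040). Genes on the other strand cover 56.1% of the exonic bases of SLC18A2, chiefly PDZD8, so its counts are uncertain. PDZD8 itself fell in all 4 comparisons, at −0.60 ± 0.038 and −0.85 ± 0.038 in BE2C and −0.53 ± 0.039 and −0.57 ± 0.038 in Kelly.

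SLC6A2 (chromosome 16, 55655604–55706192, plus strand), the noradrenaline transporter, had 206, 195 and 185 CPM in the BE2C controls, 257, 246 and 241 with shAhR-1 and 67.1, 74.4 and 76.3 with shAhR-2. It rose with shAhR-1 (0.34 ± 0.040) and fell 2.69-fold with shAhR-2 (−1.43 ± 0.043), and the groups did not overlap. Kelly had 73.6, 79.6 and 77.6 CPM in the controls, 70.6, 72.2 and 72.4 in the libraries labelled shAhR-1 and 51.3, 57.3 and 55.3 with shAhR-2. It fell with shAhR-2 (−0.49 ± 0.043). The small shAhR-1 value (−0.10 ± 0.042, edgeR adjusted p = 0.0360) lost its call without any of 4 single libraries (−0.08, adjusted p = 0.160, without the second control), with DESeq2 (adjusted p = 0.0701) and with a filter at a mean of 1 CPM (adjusted p = 0.0550). A further annotated gene shares 17.9% of the exonic bases of SLC6A2 on its strand.

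MAOA (chromosome X, 43654907–43746824, plus strand), monoamine oxidase A, fell in every comparison with the control, from very unequal levels. In Kelly it had 362, 366 and 365 CPM in the controls, 133, 135 and 137 in the libraries labelled shAhR-1 and 106, 112 and 110 with shAhR-2 (−1.43 ± 0.030 and −1.74 ± 0.030). In BE2C the counts were 92, 78 and 78 in the controls, 52, 42 and 21 with shAhR-1 and 36, 56 and 40 with shAhR-2. All 6 BE2C hairpin libraries were below the controls as CPM too (−1.10 ± 0.30 and −1.06 ± 0.29, edgeR adjusted p = 0.00213 and 0.00166).

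**Figure D2:**
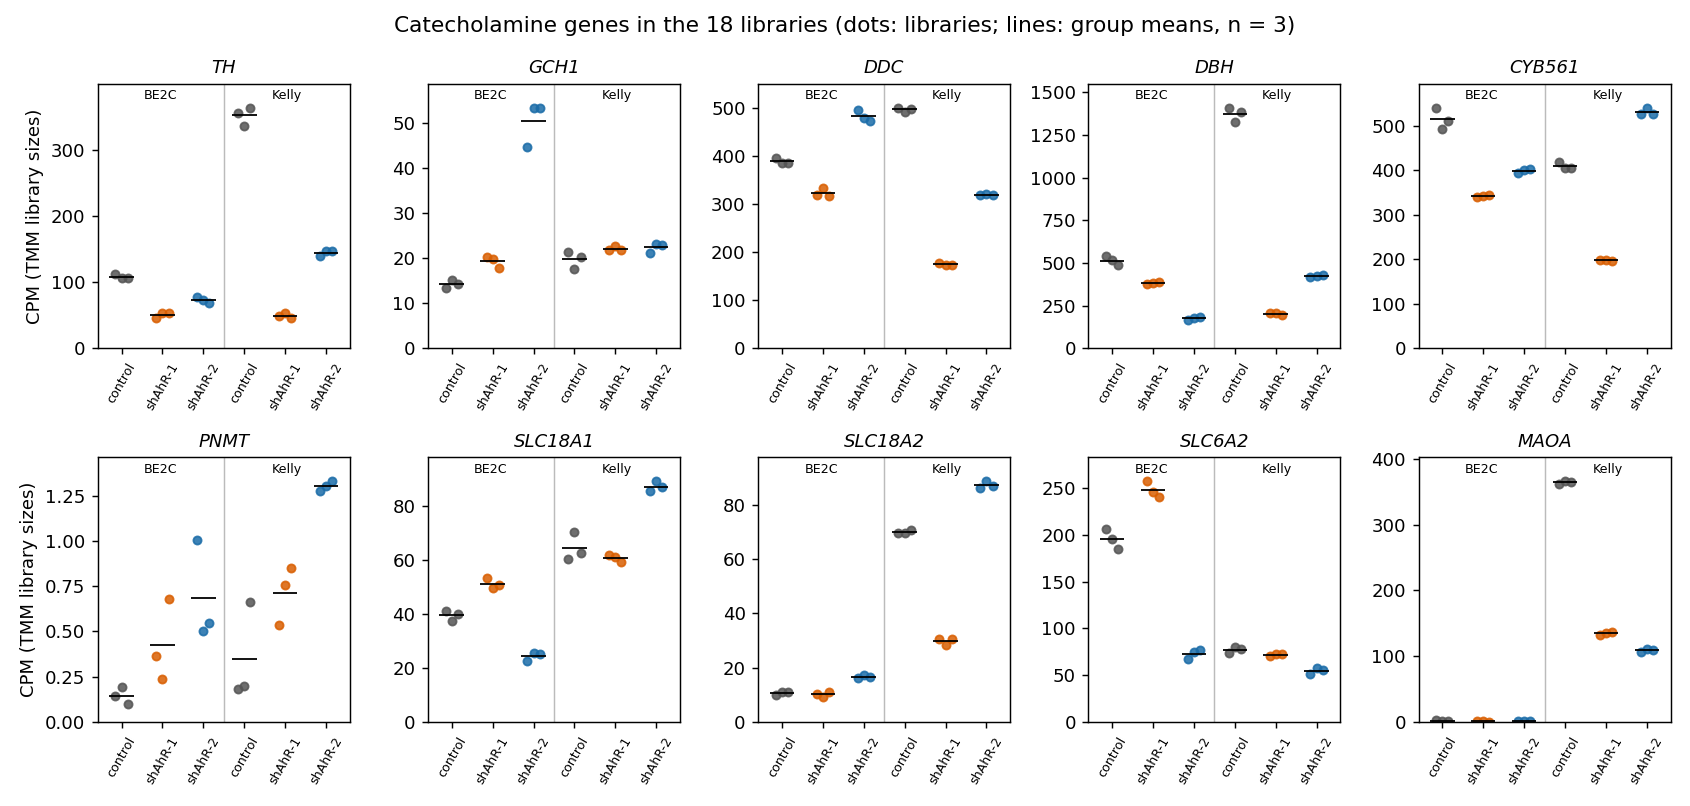
CPM of each gene in the 18 libraries, with scales set within each line (dots are libraries, lines the means of 3, and each panel starts at 0). TH and DBH lie below the control in all 4 hairpin groups, GCH1 rises mainly in BE2C with shAhR-2, and MAOA is near 0 in all of BE2C.

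Leaving out the first BE2C shAhR-2 library kept all 10 calls of that group. The log2 values were then −0.63 for TH, 1.89 for GCH1, 0.28 for DDC, −1.51 for DBH, −0.37 for CYB561, 1.82 for PNMT, −0.66 for SLC18A1, 0.65 for SLC18A2, −1.39 for SLC6A2 and −0.97 for MAOA. Between the BE2C hairpins PNMT moved from 0.67 to 0.29 without it, and the PNMT difference between the lines with shAhR-2 from 0.26 to −0.12, neither being called. All 16 genes of the wider lists that are picked in BE2C also kept their shAhR-2 call, with shifts of at most 0.20.

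Counted together, BE2C shAhR-1 called 4 members higher (GCH1, PNMT, SLC18A1, SLC6A2) and 5 lower, where 25.2% of all 15732 genes tested were higher and 27.1% lower. BE2C shAhR-2 called 4 higher (DDC, GCH1, PNMT, SLC18A2) and 6 lower, with 38.0% and 37.2% of all genes. In Kelly the libraries labelled shAhR-1 had 2 members higher (GCH1, PNMT) and 7 lower, against 29.6% and 31.0% of 15871 genes. With shAhR-2, Kelly had 5 higher and 5 lower, against 37.2% and 38.2% of genes. The median change of the members was −0.16, −0.47, −1.14 and −0.15 in these 4 comparisons, while that of all genes lay between −0.01 and 0.03. PNMT adds no support to the counts of risers, and over the 9 other members 3, 3, 1 and 4 were called higher, with medians of −0.27, −0.57, −1.23 and −0.49. With both hairpins of a line, comparisons that share their controls, 4 members fell in BE2C (TH, DBH, MAOA, CYB561) and 2 rose (GCH1, PNMT), where 17.4% of all genes fell with both and 14.6% rose. In Kelly 5 fell (TH, DBH, DDC, SLC6A2, MAOA) and 2 rose (GCH1, PNMT), with 14.3% and 12.9% of genes. Calls with opposite signs were made for 3 members in BE2C (DDC, SLC18A1, SLC6A2) and 2 in Kelly (SLC18A2, CYB561), against 12.6% and 22.4% of genes. Over all 4 comparisons TH, DBH and MAOA fell and GCH1 was called higher, as was PNMT, whose calls the filter favoured, where 8.88% of the 14680 genes tested in both lines fell and 6.34% rose.

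**Figure D3:**
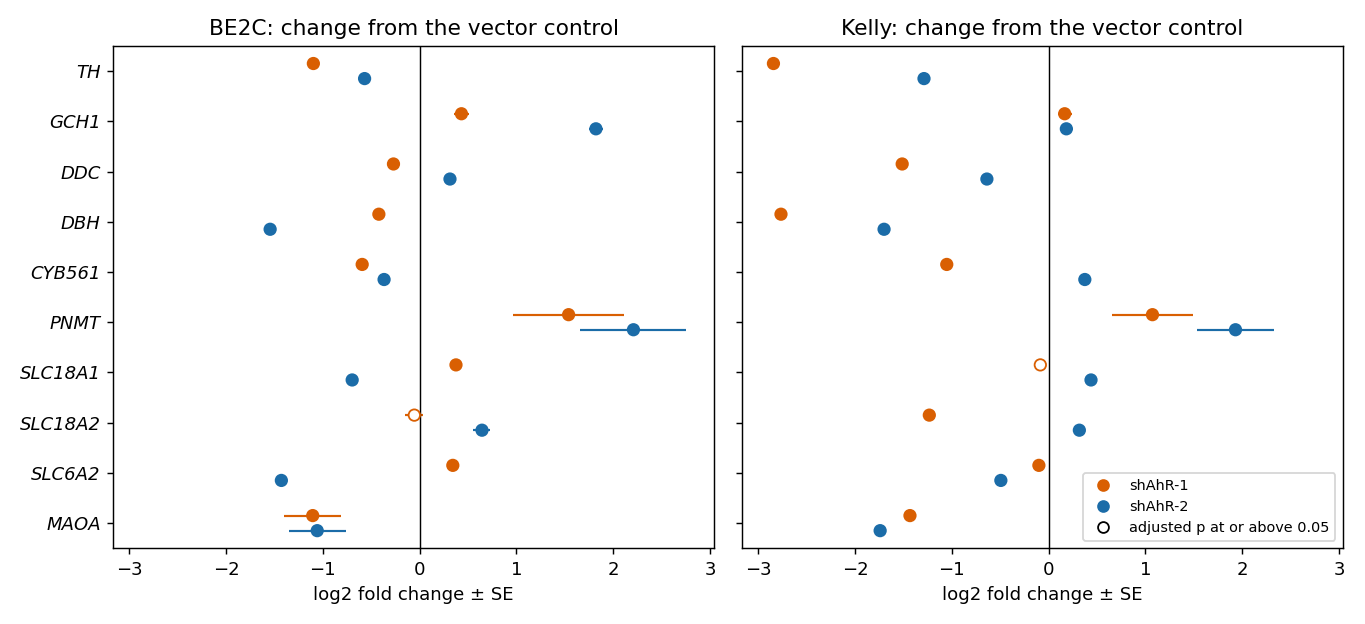
Log2 fold change of each gene from the vector control of its line (points, with SE bars), for shAhR-1 and shAhR-2. Filled points passed the test, and the open points are SLC18A2 in BE2C and SLC18A1 in Kelly with shAhR-1.

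The hairpins were also compared with each other. In Kelly 7 members were higher with shAhR-2 than in the libraries labelled shAhR-1, led by TH (1.56 ± 0.040), SLC18A2 (1.55 ± 0.044), CYB561 (1.43 ± 0.028) and DBH (1.06 ± 0.028), where 38.2% of all genes were higher. SLC6A2 (−0.39 ± 0.043) and MAOA (−0.31 ± 0.031) were lower, as were 39.3% of genes, and GCH1 did not pass the test (0.02 ± 0.070, −0.12 to 0.16 at 2 SE). The PNMT call of this comparison (0.86 ± 0.36, edgeR adjusted p = 0.0280) was lost without any of 4 single libraries (0.69, adjusted p = 0.107, without the first shAhR-1 library). It was also lost with DESeq2 (adjusted p = 0.0605). In BE2C 5 members were higher with shAhR-2, namely GCH1 (1.39 ± 0.071), SLC18A2 (0.70 ± 0.088), DDC (0.58 ± 0.029), TH (0.53 ± 0.052) and CYB561 (0.23 ± 0.030), with 36.5% of all genes. SLC6A2 (−1.77 ± 0.043), DBH (−1.12 ± 0.036) and SLC18A1 (−1.07 ± 0.057) were lower, with 35.9% of genes. MAOA (0.05 ± 0.31, −0.58 to 0.67 at 2 SE) and PNMT (0.67 ± 0.47, −0.28 to 1.62 at 2 SE) did not pass the test there.

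Whether a hairpin's change differed between the lines was tested in 1 fit of all 18 libraries, as the BE2C change minus the Kelly change. With shAhR-1, 8 members had a positive difference and none a negative one, against 17.5% and 18.2% of 17136 genes. The largest were DBH (2.35 ± 0.047), TH (1.75 ± 0.069), DDC (1.25 ± 0.040) and SLC18A2 (1.19 ± 0.089). DBH, TH and DDC fell further in the Kelly libraries labelled shAhR-1 than in BE2C. SLC18A2 fell in those Kelly libraries and did not pass the test in BE2C (−0.05 ± 0.091, edgeR adjusted p = 0.646). MAOA (0.34 ± 0.18) and PNMT (0.48 ± 0.73) did not pass, and MAOA moved from 0.11 (adjusted p = 0.783) without the first BE2C shAhR-1 library to 0.63 (adjusted p = 0.00374) without the third. GCH1 passed narrowly (0.27 ± 0.11, edgeR adjusted p = 0.0463) and lost its call when any of 10 single libraries was left out (0.20, adjusted p = 0.183, without the first Kelly control), with a replicate block (0.28, adjusted p = 0.0561) and under 5 other settings, DESeq2 among them (adjusted p = 0.107). With shAhR-2, 6 differences were positive and 3 negative, against 28.8% and 25.8% of genes. GCH1 (1.62 ± 0.11), DDC (0.93 ± 0.040) and TH (0.70 ± 0.065) were on the positive side, and SLC18A1 (−1.15 ± 0.073), SLC6A2 (−0.95 ± 0.062) and CYB561 (−0.76 ± 0.041) on the negative. DBH was nearly level between the lines with this hairpin (0.14 ± 0.046, edgeR adjusted p = 0.0103), and that call was lost without the third BE2C control (0.09, adjusted p = 0.0944), without the third BE2C shAhR-2 library or the first Kelly control, with no filter (0.06, adjusted p = 0.281) and with a filter at 1 CPM (0.09, adjusted p = 0.0910). MAOA passed (0.67 ± 0.18) but not without the second BE2C shAhR-2 library (0.45, adjusted p = 0.0659).

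**Figure D4:**
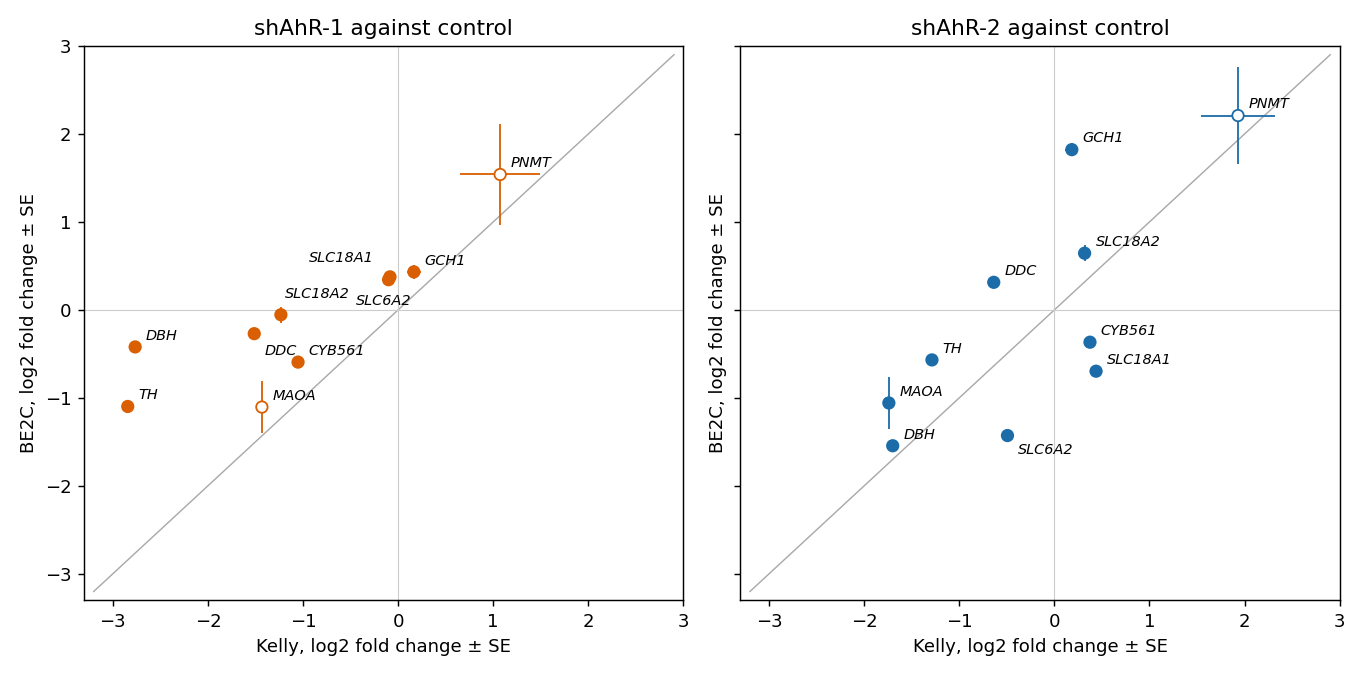
Log2 fold change from the control in BE2C (vertical axis) against Kelly (horizontal axis) for each hairpin, with SE bars and a line of equal change. Filled points are genes whose change differed between the lines in the test. With shAhR-1 TH and DBH lie far to the left of the line, and with shAhR-2 DBH lies almost on it while GCH1 lies far above.

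Other genes of the pathway were counted from 6 lists. Of 12 genes that serve tetrahydrobiopterin or supply copper and ascorbate to DBH, 11 were tested in BE2C and 12 in Kelly. With both hairpins 6 fell and none rose in BE2C, and 6 fell, 1 rose and 2 (SPR, PCBD1) had opposite signs in Kelly. Throughout the 4 comparisons 5 fell. The shares of all genes are the 17.4% and 14.6% (BE2C), 14.3%, 12.9% and 22.4% (Kelly) and 8.88% given above. The copper importer gene SLC31A1 went from 233 ± 6.81 CPM to 160 ± 1.73 and 65.1 ± 3.13 in BE2C (−0.55 ± 0.035 and −1.84 ± 0.037) and from 34.2 ± 0.776 to 23.1 ± 1.44 and 18.8 ± 1.19 in Kelly (−0.57 ± 0.063 and −0.87 ± 0.063). ATP7A, which pumps copper into the secretory pathway, fell in BE2C at −0.73 ± 0.052 and −0.60 ± 0.051. In Kelly the pterin-recycling enzyme gene QDPR (−0.52 ± 0.038 and −0.57 ± 0.038) and the copper chaperone gene ATOX1 (−0.44 ± 0.092 and −0.58 ± 0.092) fell. The ascorbate transporter gene SLC23A1 rose in Kelly from 0.720 ± 0.136 CPM (0.99 ± 0.31 and 0.74 ± 0.31), with the first call lost without the first shAhR-1 library (0.63, adjusted p = 0.120) and the second without the second control (0.59, adjusted p = 0.118), without the second or the third shAhR-2 library, and with DESeq2 (adjusted p = 0.0573). The median of this list was −0.28 and −0.53 in BE2C and −0.41 and −0.16 in Kelly.

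Among 10 other genes of catecholamine breakdown, 7 were tested in BE2C and 9 in Kelly, and 2 and 3 of them fell with both hairpins (17.4% and 14.3% of all genes) while none rose. ALDH2 in BE2C and MAOB in Kelly had opposite signs, against 12.6% and 22.4% of all genes. In Kelly MAOB passed the filter through the shAhR-2 libraries, where it was high, so its calls there were favoured by the filter. AKR1B1, an aldose reductase, fell in BE2C (−0.43 ± 0.036 and −1.49 ± 0.038) and Kelly (−0.09 ± 0.031 and −1.29 ± 0.032), its call in the Kelly libraries labelled shAhR-1 being lost without the first control (−0.06, adjusted p = 0.109). ALDH3A2, an aldehyde dehydrogenase gene, fell at −0.15 ± 0.055 and −0.88 ± 0.057 in BE2C and −0.25 ± 0.042 and −0.51 ± 0.042 in Kelly. Its BE2C shAhR-1 call was lost without the second (−0.08, adjusted p = 0.250) or the third control or the second shAhR-1 library. AKR1A1 fell in Kelly (−0.17 ± 0.041 and −0.73 ± 0.042). MAOB, the other monoamine oxidase, described after its values were seen, was at 0 in all BE2C control and shAhR-1 libraries and at 0.296 ± 0.183 CPM with shAhR-2, and in Kelly at 0.189 ± 0.150, 0.0197 ± 0.0342 and 1.25 ± 0.292 CPM.

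Of 14 receptor genes, most of them too low to be tested, 5 were tested in BE2C and 6 in Kelly. In each line 1 of them fell with both hairpins and none rose with both. Of all genes 17.4% fell and 14.6% rose with both in BE2C, and 14.3% and 12.9% in Kelly. In BE2C that gene was ADRA2A, the alpha-2A autoreceptor (−0.39 ± 0.10 and −1.43 ± 0.11). Opposite signs with the 2 hairpins were called for 3 receptor genes in BE2C and 1 in Kelly, against 12.6% and 22.4% of all genes. Of 14 other transporter and vesicle genes 9 were tested in BE2C and 10 in Kelly. The vesicle protein genes SV2A in BE2C (−0.58 ± 0.038 and −0.21 ± 0.037) and SV2C in Kelly (−0.45 ± 0.070 and −1.76 ± 0.076) fell with both, none rose with both, and 3 in Kelly had opposite signs. The shares of all genes are again 17.4% and 14.6% (BE2C) and 14.3%, 12.9% and, for opposite signs, 22.4% (Kelly).

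Of 15 transcription factor genes tied to the noradrenergic genes, all tested in both lines, 3 rose and 3 fell with both hairpins in each line, where 14.6% and 17.4% of all genes did so in BE2C, and 12.9% and 14.3% in Kelly. In all 4 comparisons 2 of them fell and 1 rose, where 8.88% of the 14680 genes tested in both lines fell and 6.34% rose. HAND2 was among those that fell (−0.23 ± 0.028 and −2.18 ± 0.030 in BE2C, −0.23 ± 0.026 and −1.38 ± 0.027 in Kelly), and NR4A1 was the gene that rose (0.74 ± 0.075 and 1.13 ± 0.073, 0.29 ± 0.067 and 0.55 ± 0.065). PHOX2A, a homeodomain factor of noradrenergic neurons, fell in Kelly (−0.68 ± 0.033 and −0.11 ± 0.032), the second call being lost without the first control (−0.06, adjusted p = 0.0765). ISL1 (0.48 ± 0.040 and 0.51 ± 0.040) and TBX2 (0.16 ± 0.033 and 0.55 ± 0.032) rose in BE2C, and EGR1 (2.71 ± 0.13 and 0.77 ± 0.15) and HAND1 (0.38 ± 0.028 and 1.26 ± 0.028) in Kelly. Opposite signs with the 2 hairpins were called for 3 of the 15 in BE2C, including HAND1, and 2 in Kelly, including ISL1. Of all genes 12.6% and 22.4% had opposite signs. Among 9 related hydroxylases and relatives of CYB561 (8 tested in BE2C, 9 in Kelly), PAM (0.29 ± 0.037 and 0.23 ± 0.037, 0.43 ± 0.034 and 0.93 ± 0.034), the peptide-amidating relative of DBH, and CYB561D1 (0.72 ± 0.092 and 0.92 ± 0.090, 0.30 ± 0.072 and 0.36 ± 0.071) rose in all 4 comparisons, as did 6.34% of all genes, and CYB561D2 fell in BE2C (−0.49 ± 0.15 and −1.48 ± 0.16). The 8 chromaffin cell markers, which include PNMT and SLC18A1, summed to 1355 to 1407 CPM in the BE2C controls, 1110.4 to 1141 with shAhR-1 and 658 to 700.3 with shAhR-2, and to 3446 to 3666, 1619.9 to 1689 and 1340.2 to 1355.5 CPM in Kelly, with PENK at 0 in all BE2C groups. The sums do not give the direction of each marker. With both BE2C hairpins 2 of 7 tested rose (PNMT, CARTPT) and 2 fell (CHGA, DLK1), against 14.6% and 17.4% of all genes. In Kelly 1 of 8 tested rose (PNMT) and 2 fell (CHGA, DLK1), against 12.9% and 14.3%. In each line 2 had opposite signs, against 12.6% and 22.4% of genes. The filter favoured the PNMT calls.

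Likeness between genes was measured as Pearson's r of log2 CPM over the 18 libraries, each centred on the control mean of its line, among 9819 genes at a mean of 5 CPM or more in both lines. The points share their 6 groups and their controls, so r is a description. STRA6 (0.961), UCHL1 (0.959) and PCDH1 (0.958) were most like TH. Most like DBH were QARS1 (0.985), CYTH3 (0.970) and DCLK3 (0.965), and ABCB8 (0.981), SNAI1 (0.981) and ZNF768 (0.980) were most like GCH1. Among the members themselves TH was closest to DDC (0.921) and DBH (0.871), whereas SLC6A2 and GCH1 ran most nearly opposite (−0.828).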

How the data were processed

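The authors deposited raw counts per gene, 1 table for each line. Per the labels' protocols, RNA came from the miRNeasy kit and libraries from the RNA HyperPrep kit with RiboErase. Per the submitters' processing notes, CASAVA 1.8.2 and STAR 2.7.9a were used with GRCh38.p7. Counting tool, annotation and strand setting: not given in the sources used here. Low counts (1 to 20) were even in 68.3% to 72.5% of cases, so mates of a pair may each have been counted.

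Each line was fitted alone (3 groups of 3), and all 18 libraries together for differences between lines, with edgeR 4.0.16 (filterByExpr, TMM, glmQLFit, glmQLFTest), adjusted over all genes tested. SE came from the fold change and F. Members and lists were chosen with earlier results of these data known. All members were named, with up to 3 genes per list, line and direction, those called with both hairpins with the largest smaller change. Some genes the rule picks are not reported here by name and stay in the counts. Alternatives were RLE factors, 2 filters, a replicate block, each library left out, only the groups compared, DESeq2 1.42.0, halved counts and no mitochondrial genes. R 4.3.3, Python 3.11.15 and GENCODE release 29 were used, and the fits were tested on simulated data.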

Additional observations from a re-analysis of the deposited data

Results flagged for a closer look

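The change of several genes differed between the lines in edgeR's test of BE2C minus Kelly, adjusted over all genes. With shAhR-1 the log2 differences were 1.75 for TH, 2.35 for DBH, 1.25 for DDC, 0.27 for GCH1, 0.47 for SLC18A1, 1.19 for SLC18A2, 0.45 for SLC6A2 and 0.47 for CYB561. With shAhR-2 they were 0.70 for TH, 0.14 for DBH, 0.93 for DDC, 1.62 for GCH1, −1.15 for SLC18A1, 0.31 for SLC18A2, −0.95 for SLC6A2, 0.67 for MAOA and −0.76 for CYB561.

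For 2 genes the hairpins were ordered oppositely in the lines, with no overlap between libraries. DBH was lower with shAhR-2 than with shAhR-1 in BE2C (log2 −1.12) and higher in Kelly (1.06). SLC18A1 showed the same pattern (−1.07 and 0.52). The difference between these 2 contrasts was not tested.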

How the results depend on the processing

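Across the alternatives the number of the 10 members called stayed at 8 or 9 for BE2C shAhR-1, 9 or 10 for BE2C shAhR-2 and for Kelly shAhR-2, and 6 to 9 for Kelly shAhR-1. It was 8 in every setting run between the hairpins in BE2C, 8 or 9 in Kelly, 9 or 10 between the controls, 7 to 9 for the shAhR-1 difference between lines and 8 or 9 for that of shAhR-2. Of 1789 member values under an alternative, 1727 kept their sign and call, 50 lost a call, 4 gained one and 8 changed sign, none of the 8 being called. A filter at a mean of 1 CPM left PNMT untested, as did a fit of only the groups compared for BE2C shAhR-1 and between the controls.

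Sign changes came with single libraries left out. Leaving out each library in turn, GCH1 between the Kelly hairpins ranged from −0.0051 to 0.059, MAOA between the BE2C hairpins from −0.25 to 0.26, PNMT in the shAhR-1 difference between lines from −0.36 to 0.80, and PNMT in that of shAhR-2 from −0.58 to 0.57. Same-numbered libraries did not deviate together (r of −0.09 to 0.07 in BE2C and −0.05 to 0.05 in Kelly). With the replicate block 1 of 90 member calls changed, GCH1 in the shAhR-1 difference between lines (0.28, adjusted p = 0.0561). Low counts limit PNMT in both lines and MAOA in BE2C.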

Other observations

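DBH-AS1 (chromosome 9, 133654586–133657313, minus strand), an antisense gene inside DBH, did not follow DBH in BE2C. Its counts there were 187, 228 and 187 in the controls, 238, 173 and 223 with shAhR-1 and 706, 599 and 673 with shAhR-2, a rise of 1.57 ± 0.11 (log2 ± SE, edgeR adjusted p = 3.59e-14) with shAhR-2, where DBH fell, and 1.47 without the first shAhR-2 library. With shAhR-1 the value was 0.08 ± 0.12 (adjusted p = 0.638). In Kelly DBH-AS1 had 1015, 921 and 919 counts in the controls, 273, 296 and 310 in the libraries labelled shAhR-1 and 364, 316 and 330 with shAhR-2, and fell with both (−1.56 ± 0.087 and −1.55 ± 0.086), as DBH did. The gene was picked after its values were seen, and without a known strand setting its reads cannot be told apart from those of DBH where their exons overlap.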
